A study of Mus musculus with 31 samples.

Results

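Imprinted genes are transcribed mainly or only from the copy inherited from one parent. The members described here are 33 protein-coding genes that are known to be imprinted in mouse, chosen by name, out of 25497 genes in the files. By the expressed allele as known in mouse, 18 were classed as paternally expressed and 12 as maternally expressed. The other 3 (Gnas, Grb10 and Inpp5f) were classed apart, as the copy depends on the transcript or the tissue. These classes are labels for counting. The copy used can depend on the cell type in further members, such as Ube3a, which is maternally expressed in neurons. Of the 33 members, 31 passed the filter on low counts, among 14886 genes tested. RNA from bulk thalamus was sequenced from 31 adult animals aged 90 days after birth. Of these, 15 were offspring of mothers raised in social isolation (SIR, 7 males and 8 females), and 16 were offspring of control mothers (8 males and 8 females). The comparison asks whether expression in the adult offspring differed with the rearing of the mother. Strain, genotype and litter are not given in the labels, and the parental origin of the transcripts was not measured, so every value below is the sum over both copies.

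Imprints are DNA methylation marks laid down in the germ line and kept after fertilisation, when most other marks are erased. The zinc finger protein ZFP57, with its partner TRIM28, binds a methylated hexamer at imprinting control regions and protects the mark there. Imprinted genes act in fetal growth, placenta and maternal care, and many of them, Magel2, Ndn, Peg3, Nnat and Dlk1 among these, are known for high expression in the hypothalamus, which lies directly below the thalamus. Lateral hypothalamic neurons are marked by Pmch, the precursor of melanin-concentrating hormone, and by Hcrt, the precursor of the orexins, and neither peptide is known to be made by thalamic relay neurons.

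Promoter windows of 300 bases, from 250 before to 50 after the start of transcription, were taken from RefSeq (build GRCm38.p6) and matched 28 of the 33 members with 42 windows. A few are shown because their genes carry the results below: Ndn and Peg3, Nnat, Nap1l5 and Zim1, which varied together with Hcrt, and Mest, which differed between the sexes. Lower case is used throughout, and capitals mark the ZFP57 hexamer TGCCGC on either strand, where GCGGCA is its reverse complement. No other motif was searched.
Ndn, chr7:62348027-62348326, plus strand: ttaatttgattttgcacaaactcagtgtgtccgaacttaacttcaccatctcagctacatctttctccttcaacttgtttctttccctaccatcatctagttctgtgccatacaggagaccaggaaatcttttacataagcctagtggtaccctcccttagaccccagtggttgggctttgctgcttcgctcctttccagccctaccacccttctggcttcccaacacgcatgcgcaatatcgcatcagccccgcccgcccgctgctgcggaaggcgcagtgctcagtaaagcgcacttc
Peg3, chr7:6730370-6730669, minus strand: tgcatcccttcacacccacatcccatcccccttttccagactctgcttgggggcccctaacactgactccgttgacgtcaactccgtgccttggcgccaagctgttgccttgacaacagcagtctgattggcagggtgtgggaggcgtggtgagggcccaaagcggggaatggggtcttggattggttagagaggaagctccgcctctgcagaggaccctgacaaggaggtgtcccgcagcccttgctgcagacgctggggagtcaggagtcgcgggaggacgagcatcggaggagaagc
Nnat, chr2:157559828-157560127, plus strand: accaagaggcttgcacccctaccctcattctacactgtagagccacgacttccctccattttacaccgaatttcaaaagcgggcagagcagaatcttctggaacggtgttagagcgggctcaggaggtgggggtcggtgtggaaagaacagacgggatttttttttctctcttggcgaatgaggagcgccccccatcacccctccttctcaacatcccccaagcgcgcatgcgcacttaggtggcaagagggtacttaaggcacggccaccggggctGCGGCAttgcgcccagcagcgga
Nap1l5, chr6:58907077-58907376, minus strand: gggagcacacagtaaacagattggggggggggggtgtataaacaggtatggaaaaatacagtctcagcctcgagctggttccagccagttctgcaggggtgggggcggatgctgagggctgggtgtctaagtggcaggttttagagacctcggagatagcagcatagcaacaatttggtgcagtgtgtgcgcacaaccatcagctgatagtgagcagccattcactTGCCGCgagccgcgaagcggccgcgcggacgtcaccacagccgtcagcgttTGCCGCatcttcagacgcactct
Zim1, chr7:6696383-6696682, minus strand: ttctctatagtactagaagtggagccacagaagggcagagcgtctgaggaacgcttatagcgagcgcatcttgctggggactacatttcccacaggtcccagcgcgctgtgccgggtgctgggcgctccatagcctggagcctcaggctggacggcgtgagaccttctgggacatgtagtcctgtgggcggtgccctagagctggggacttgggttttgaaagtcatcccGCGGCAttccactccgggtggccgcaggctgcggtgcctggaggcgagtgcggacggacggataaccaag
Mest, chr6:30737803-30738102, plus strand: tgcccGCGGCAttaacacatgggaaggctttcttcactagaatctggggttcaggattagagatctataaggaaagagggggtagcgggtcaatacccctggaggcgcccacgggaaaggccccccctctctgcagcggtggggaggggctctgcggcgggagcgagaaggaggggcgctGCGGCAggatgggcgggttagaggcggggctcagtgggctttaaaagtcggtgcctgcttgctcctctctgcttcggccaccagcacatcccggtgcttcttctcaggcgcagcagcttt
The letters TGCCGC, on either strand, were found in 11 of the 42 member windows (26.2%, in 10 of 28 members), against 11.6% of all 32851 promoter windows of the same length. The Nap1l5 and the Mest window each held 2 copies, the Nnat and the Zim1 window 1 each, and the Ndn and Peg3 windows none. The median number of CpG dinucleotides per window was 17 in the members and 7 over all windows. A match is a description of the letters, and binding or methylation was not measured.

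Library totals ran from 13 to 25.74 M (mega) estimated counts, median 23.28 M. CPM are counts of a gene relative to the scaled total of its library. The summed CPM of 7 markers of thalamic relay neurons ran from 1932 to 3698 over the libraries, and none of the markers was at 0 in all of them. For the Y-linked gene Ddx3y, the library labelled SIR female 5 stood at 41.6 CPM, within the range of the libraries labelled male (31.5 to 50.2 CPM), whereas the other 15 libraries labelled female held at most 0.0481 CPM. It was kept under its label, and results are given without it where that changes a call. The labels name no batch, and all library numbers of SIR animals lie below those of the controls, so that handling cannot be told apart from housing. Other tissue differed between single libraries. Pmch ran from 1.29 to 153 CPM, Hcrt from 0.234 to 113 CPM and Ttr, the transthyretin gene that marks choroid plexus, from 0.0448 to 1564 CPM, which was reached in control female 20. In bulk tissue, fewer cells of a type and less RNA per cell cannot be told apart.

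Levels were compared between genes in TPM, which are corrected for transcript length and scaled to the same total in each library. The median over the 31 members of the mean TPM was 55.4, against 17.2 over all genes tested. Gnas, which encodes the stimulatory G protein alpha subunit, was the most abundant member with a median of 2742 TPM (range 1965 to 3256), above 99.8% of the genes tested. Snrpn, which encodes a core protein of the neuronal spliceosome, followed with 1094 TPM (986 to 1196), and Nap1l5, a nucleosome assembly protein-like gene, with 720 TPM (525 to 970). The ranges of these leading genes did not overlap one another. Snurf, which is not a member and shares exons with Snrpn on the same strand, averaged 1178 TPM. In counts Snurf held little of the pair, with 47.0 ± 4.06 CPM in males and 42.1 ± 10.5 CPM in females (SD). Snrpn held 949 ± 59.4 CPM in males and 897 ± 33.9 CPM in females. Adding the counts of Snurf to Snrpn would thus raise its level little. Whether reads given to Snrpn came from Snurf is not known. Impact, an inhibitor of the translation control kinase GCN2, had a median of 349 TPM (227 to 509), Nnat, which encodes the small membrane protein neuronatin, 322 TPM (99.4 to 612), and Rasgrf1, a guanine nucleotide exchange factor for Ras, 282 TPM (227 to 329). These ranges overlapped, so that their order was not the same in every library. Peg3, a zinc finger protein gene, had 183 TPM (134 to 252) and Ndn, which encodes the growth suppressor necdin, 176 TPM (109 to 302), and these ranges overlapped. The next members by mean TPM were Zrsr1 (118 ± 10.9, SD, n = 31), Blcap (100 ± 10.5), Inpp5f (83.1 ± 8.23) and Commd1 (83.0 ± 8.66), a gene of copper transport, followed by Copg2 (64.4 ± 5.91), which encodes a coat protein of Golgi vesicles, and H13 (62.4 ± 6.25). Grb10 (56.8 ± 14.3), Usp29 (55.4 ± 12.8), Ube3a (46.2 ± 7.18) and Trappc9 (40.2 ± 4.18), which encodes a subunit of a vesicle trafficking complex, stood in the middle of the list.

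**Figure D1:**
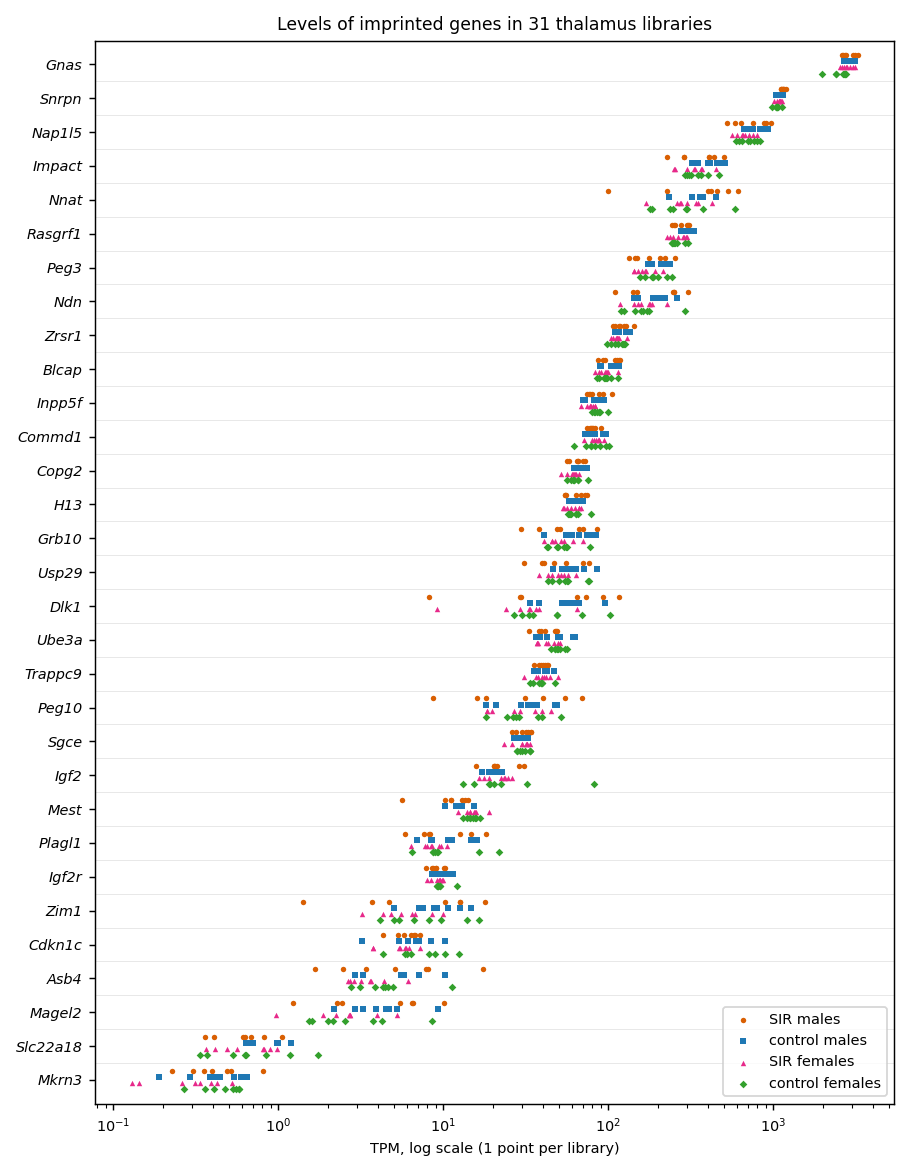
TPM of each imprinted gene, on a log scale, with 1 point per library and a row of points for each of the SIR males, control males, SIR females and control females; Dio3 and Phlda2, which were at 0 in some or all libraries, are not drawn. The genes span from Mkrn3, with a mean of 0.415 TPM, to Gnas, with a mean of 2768 TPM, and Dlk1, Zim1, Asb4 and Magel2 spread more widely over the libraries than Snrpn or Gnas.

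The members differed in how much they varied between libraries. Dlk1, which encodes a membrane protein related to Notch ligands, ran from 8.21 to 116 TPM, with a coefficient of variation of 0.533 over the libraries. Zim1 ran from 1.41 to 17.8 TPM, Magel2 from 0.965 to 10.1 TPM and Asb4 from 1.68 to 17.3 TPM. Snrpn, in contrast, had a coefficient of variation of 0.0444, Sgce (epsilon-sarcoglycan) of 0.0897 and Zrsr1 of 0.0918. Igf2, the fetal growth factor gene, stood between 13.1 and 32.3 TPM in 30 libraries and at 82.3 TPM in control female 20, the library with the highest Ttr. Among the growth regulators at lower levels, the receptor gene Igf2r, which clears IGF2, averaged 9.47 ± 0.913 TPM (SD, n = 31) and Cdkn1c, a cell cycle inhibitor, 6.52 ± 1.99 TPM.

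Members at the bottom of the range rested on few counts. Mkrn3, a ubiquitin ligase gene that acts in the timing of puberty, averaged 0.415 ± 0.154 TPM (SD, n = 31) and Slc22a18, a transporter gene, 0.733 ± 0.304 TPM. Dio3, which encodes the deiodinase that inactivates thyroid hormone, had 52 counts in all, spread over 15 libraries, with the highest count, 11, in control females 20 and 29. Phlda2, known for its role in placental growth, had 0 counts in all 31 libraries, which allows up to 0.232 CPM in the shallowest and 0.117 CPM in the deepest library (3 counts in a library, counting error only). Neither passed the filter, and neither was tested.

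Between SIR and control offspring over both sexes, edgeR's quasi-likelihood test called 0 of the 31 members at an adjusted p under 0.05, where 4.55% of all genes tested were called (1.75% higher and 2.79% lower). At an unadjusted p under 0.05 there were 6 of 31 members, where 3282 of all 14886 genes were. DESeq2 called 2 members (Ube3a and Gnas), where 7.77% of all genes were called. Limma-voom called 1 (Gnas), where 8.40% were, and limma-trend on TPM 0, where 2.14% were. The median log2 fold change of the members was -0.075, against -0.006 over all genes tested, and 24 of 31 were below 0. Without control female 20 the median of the members was -0.039 and 17 were below 0. The shift is a description of genes that vary together and was not tested.

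Ube3a, the ubiquitin ligase gene that neurons express from the maternal copy and whose loss causes Angelman syndrome, had the smallest p. It ran from 77.0 through a median of 84.9 to 106 CPM in SIR offspring (n = 15), against 82.0 through 94.5 to 147 CPM in controls (n = 16). The ranges overlapped, and 11 of 15 SIR libraries lay below the control median. The log2 fold change was -0.20 ± 0.07 (SE), with a 95% interval of -0.35 to -0.06 and an adjusted p of 0.0878. Gnas ran from 1749 through 1940 to 2111 CPM in SIR offspring, against 1449 through 1857 to 2083 CPM in controls. Its log2 fold change was 0.09 ± 0.03, with an adjusted p of 0.107. Peg3 ran from 554 through 662 to 972 CPM in SIR offspring, against 608 through 775 to 992 CPM in controls, a log2 fold change of -0.17 ± 0.08 with an adjusted p of 0.165. The groups overlapped for all 3 genes.

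In males, 0 of 31 members were called by edgeR, DESeq2, limma-voom or limma-trend. Of all genes, edgeR called 1.33% (0.282% higher and 1.05% lower), DESeq2 and limma-voom 4.21% each and limma-trend 0.658%. By edgeR, 2 members had an unadjusted p under 0.05, where 2622 of all 14886 genes had. The median log2 fold change was 0.004 over the members and -0.001 over all genes. Ube3a ran from 80.5 through 83.9 to 90.3 CPM in SIR males, against 88.4 through 95.4 to 132 CPM in control males, and all 7 SIR males lay below the control median. Its log2 fold change was -0.24 ± 0.10, with an adjusted p of 0.222. Snrpn had a log2 fold change of 0.08 ± 0.04 (adjusted p 0.253). For Mest, a gene of the alpha/beta hydrolase fold family that acts in fetal growth and maternal behaviour, the log2 fold change in males was -0.21 ± 0.11 (adjusted p 0.304).

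**Figure D2:**
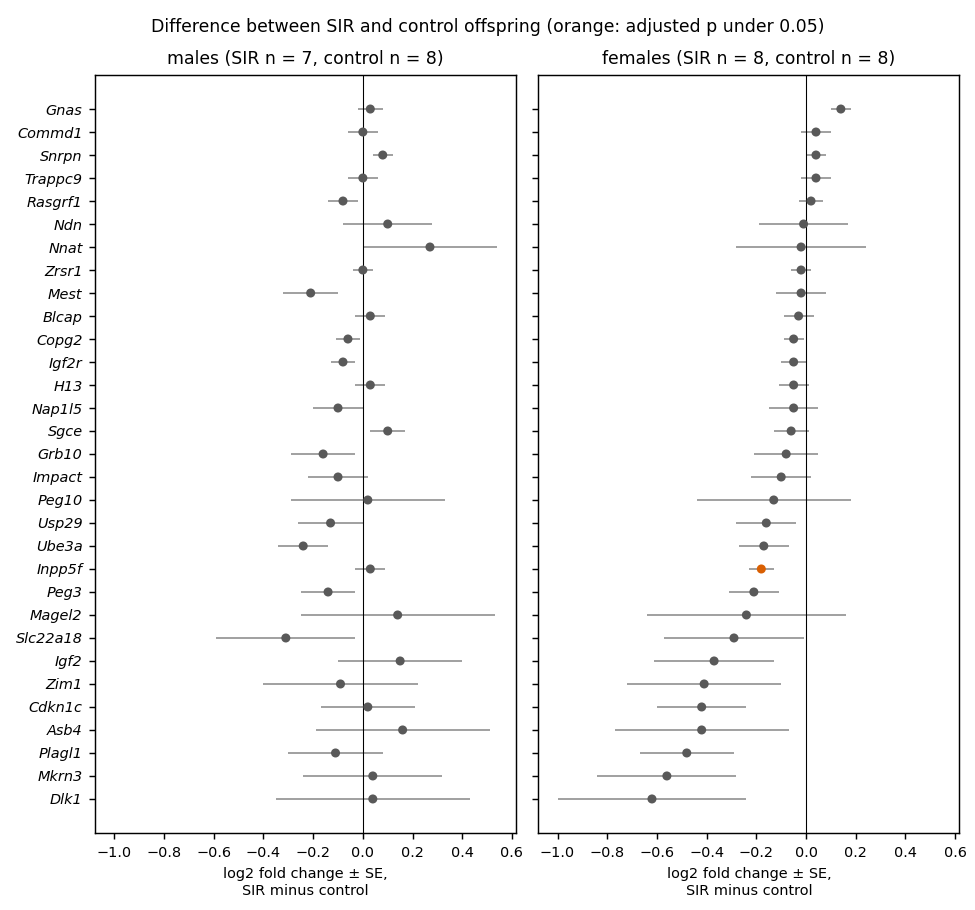
Log2 fold change, SIR minus control, with its standard error for the 31 members tested, in males on the left and in females on the right. Inpp5f in females, at -0.18, is the one value past the adjusted threshold, and 26 of 31 values in females lie below 0.

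In females, 1 of 31 members was called, with 4.62% of all genes called in either direction, 2.38% higher and 2.24% lower. The called gene was Inpp5f, which encodes an inositol phosphatase that acts on endosomes and whose internally starting transcripts are known to be paternally expressed in brain. It ran from 111 through a median of 120 to 128 CPM in SIR females, against 121 through 131 to 162 CPM in control females. All 8 SIR females lay below the control median, and the ranges overlapped between 121 and 128 CPM. The log2 fold change was -0.18 ± 0.05 (SE; edgeR, adjusted p 0.0406). The call did not hold without the library labelled SIR female 5 (adjusted p 0.0671), nor without any one of SIR females 2, 3, 7, 9 and 11 or control females 17, 29 and 31, with an adjusted p of 0.103 at most. It was also lost without a filter (log2 fold change -0.177, adjusted p 0.0574), without the 2 shallowest libraries (-0.141, 0.103), with transcript length offsets (-0.159, 0.152) and with limma-trend on TPM (-0.158, 0.219). The fold change was smallest with 2 surrogate variables (-0.098, 0.184) and without 8 libraries whose numbers are far from the others (-0.105, 0.528). The summed CPM of oligodendrocyte markers had a median of 7596 in SIR females and 9519 in control females, and their part in the Inpp5f difference was not tested.

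Over all members, the median log2 fold change in females was -0.079, against -0.011 over all genes tested, and 26 of 31 were below 0. Without control female 20 the median was -0.013 and 19 were below 0. The summed CPM of choroid plexus markers ran from 14.9 through 23.7 to 262 in SIR females, against 13.9 through 69.8 to 1789 in control females, and the highest value was that of control female 20. Hcrt had a median of 3.19 CPM in SIR females and 3.43 CPM in control females. Of 4 tested midbrain markers 3 were called lower in SIR females (median log2 fold change -3.75), with summed CPM from 2.69 through 7.27 to 15.1 in SIR females, against 6.73 through 15.1 to 71 in control females. Of 7 relay neuron markers 2 were called higher. Without SIR male 14, control female 18 or control female 20, in turn, 2 members were called in females. The shares of all genes called in these fits were 5.22%, 4.78% and 5.58%. The part of these tissues in the members' shift was not tested.

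The Inpp5f transcripts with internal starts held 66.9% of the gene's TPM and the full-length transcripts 30.4%. In a comparison added after the call was seen, the internally starting transcripts averaged 50 ± 5.03 TPM in SIR females and 56.3 ± 5.78 TPM in control females (SD, n = 8 each; exact permutation test, 2-sided, adjusted p over 4 tests 0.0422). The full-length transcripts averaged 25.2 ± 2.39 TPM in SIR females and 28.9 ± 2.98 TPM in control females (exact permutation test, adjusted p 0.0422). The differences in log2(TPM + 1) were -0.17 for the internally starting and -0.19 for the full-length transcripts. Both classes are parts of a gene picked for its call in these same libraries. Their p-values, adjusted over 4 tests and not over all genes, therefore add no support to that call. They describe only how the difference was divided between the classes. Neither class passed the threshold without the library labelled SIR female 5, with differences of -0.17 each and an adjusted p of 0.0696 each (exact permutation test, 4 tests). In males the internally starting transcripts averaged 59.5 ± 8.6 TPM in SIR and 57.1 ± 7.17 TPM in control animals (exact permutation test, adjusted p 0.567), and the full-length ones 22.7 ± 3.54 TPM in SIR and 24 ± 2.95 TPM in control animals (exact permutation test, adjusted p 0.567).

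The next member in females was Gnas, which ran from 1749 through 1894 to 2040 CPM in SIR females, against 1449 through 1756 to 1854 CPM in control females. The log2 fold change was 0.14 ± 0.04 with an adjusted p of 0.0594, and 7 of 8 SIR females lay above the control median. The adjusted p of Gnas was under 0.05 by DESeq2 (0.0276), by limma-voom (0.0361) and by edgeR with length offsets (0.045) or with Hcrt (0.0247) or Pmch (0.0335) as a covariate. The lowest value belonged to control female 31, the shallowest library. Plagl1, a zinc finger transcription factor gene that regulates other imprinted genes, ran from 9.59 through 13.4 to 15 CPM in SIR females, against 10.3 through 16.9 to 27.4 CPM in control females. All 8 SIR females lay below the control median, and the log2 fold change was -0.48 ± 0.19 with an adjusted p of 0.134. The other members had adjusted p-values of 0.192 and above in females.

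The interaction, the effect of SIR in males minus that in females, was called for 0 of 31 members by edgeR. Of all genes, 2.83% were called (1.08% higher and 1.75% lower). An unadjusted p under 0.05 was reached by 2284 of all 14886 genes and by 1 member. That was Inpp5f, whose male difference exceeded its female difference by 0.22 ± 0.08 on the log2 scale (adjusted p 0.123). DESeq2 and limma-trend called 0 members, where 4.16% and 1.55% of all genes were called. Limma-voom called Inpp5f alone (adjusted p 0.0466), where 4.97% of all genes were called. Gnas followed with -0.11 ± 0.06 (adjusted p 0.431) and Cdkn1c with 0.44 ± 0.27 (adjusted p 0.464).

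Between males and females, 4 of 31 members were called, where 10.1% of all genes were called. Of these, 3 were higher in males, where 4.45% of all genes were called higher, and 1 was lower, where 5.65% were called lower. The share of members called was near that of all genes. Mest ran from 7.45 through 15 to 18.8 CPM in males (n = 15), against 15.7 through 17.7 to 22.1 CPM in females (n = 16). The ranges overlapped, and 13 of 15 males lay below the female median. The log2 fold change was -0.31 ± 0.07 (edgeR, adjusted p 0.00901). Mest was called in all 31 fits that left out 1 library, and lost its call with Ttr as a covariate (adjusted p 0.0667) and without the 8 libraries with distant numbers (0.0831). The transcripts of Mest from its main start held 84.4% of its TPM.

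Gnas ran from 1803 through 1940 to 2111 CPM in males, against 1449 through 1822 to 2040 CPM in females, and 14 of 15 males lay above the female median. The log2 fold change was 0.11 ± 0.03 (adjusted p 0.0198). Zrsr1, which encodes a splicing factor related to U2AF, ran from 104 through 109 to 118 CPM in males, against 96.1 through 102 to 117 CPM in females. All 15 males lay above the female median, and the log2 fold change was 0.09 ± 0.03 (adjusted p 0.0418). Snrpn ran from 866 through 949 to 1049 CPM in males, against 838 through 909 to 947 CPM in females, a log2 fold change of 0.08 ± 0.03 (adjusted p 0.0468). The groups overlapped for each of the 3 genes. The calls of Zrsr1 and Snrpn were each lost in 17 of the 31 fits that left out 1 library, with an adjusted p of at most 0.0767 for Zrsr1 and 0.0748 for Snrpn, and that of Gnas in none of them. The call of Gnas was lost with limma-trend on TPM (adjusted p 0.131) and, by edgeR, without the 8 libraries with distant numbers (0.0828). It was also lost with 2 surrogate variables (log2 fold change 0.056, adjusted p 0.119) and with Hcrt (0.083, 0.135) or Ttr (0.125, 0.0612) as a covariate. The count of 4 became 9 without control female 20 and 8 without SIR male 14, where 14.8% and 13.7% of all genes were called. It became 2 without any one of SIR male 8, SIR females 7, 9, 10, 11 and 12, control males 23 and 27 or control females 26, 29 and 30. In those fits from 7.13% (without SIR female 11) to 9.69% (without SIR male 8) of all genes were called.

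**Figure D3:**
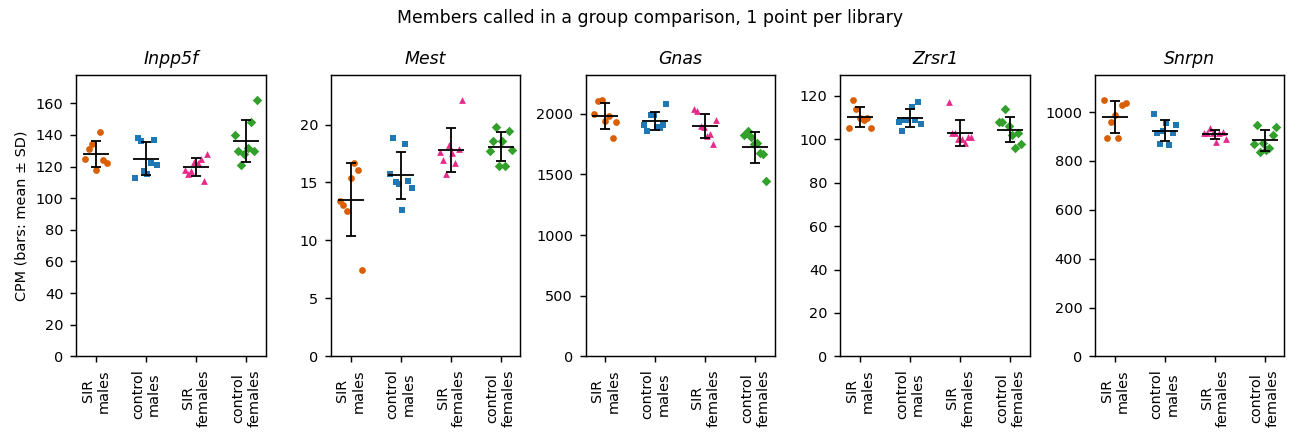
CPM of the 5 members called in a group comparison, with 1 point per library and the mean ± SD as black bars, for SIR males, control males, SIR females and control females; the axes start at 0. Inpp5f averages 120 CPM in SIR females and 136 CPM in control females, and Mest has a median of 15 CPM over males and 17.7 CPM over females.

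Markers of neighbouring tissue were set beside the sex differences. Ttr was lower in males by 4.60 ± 0.97 on the log2 scale (adjusted p 0.00409), with a median of 2.48 CPM in males and 22.6 CPM in females. Hcrt had a median of 25.2 CPM in males and 3.43 CPM in females, a log2 difference of 1.29 ± 0.71 (adjusted p 0.247). The median log2 difference of the members was 0.102, against -0.005 over all genes, with 23 of 31 above 0. With Hcrt as a covariate the median was -0.034 with 11 of 31 above 0, and 2 members (Mest and Snrpn) and 5.15% of all genes were called. With Ttr as a covariate 0 members were called by edgeR, where 3.33% of all genes were called. At an unadjusted p under 0.05 there were 6 members in that fit, with no number over all genes beside it. In that fit the log2 values were -0.28 ± 0.088 for Mest, 0.125 ± 0.038 for Gnas, 0.079 ± 0.033 for Snrpn and 0.072 ± 0.033 for Zrsr1, against -0.31 ± 0.07, 0.11 ± 0.03, 0.08 ± 0.03 and 0.09 ± 0.03 without the covariate. Without the library labelled SIR female 5 the call of Zrsr1 was lost (adjusted p 0.0501). Several of the called genes share exon positions with another gene. Snrpn shares its exons with Snurf on the same strand, and the sum of both was 996 ± 59.4 CPM in males and 939 ± 35.5 CPM in females. Mest overlaps Copg2, and Zrsr1 overlaps Commd1, on the opposite strand. The sources used here do not say whether the authors' counting used the strand, which leaves the division of reads between these genes uncertain.

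The members varied with Hcrt and Pmch across the libraries, also with the 4 group means taken out. In a fit with log2 CPM of Hcrt beside the 4 group means, 15 of 31 members were called by edgeR, all of them higher with more Hcrt, where 18% of all genes were called, 9.55% higher and 8.49% lower. The median slope of the members was 0.038 (log2 change per doubling of Hcrt), against -0.001 over all genes, and 28 of 31 slopes were above 0. Of the 17 tested members classed as paternally expressed, 10 were called, of the 11 classed as maternally expressed 4, and of the 3 others 1. Whether these shares differ was not tested. Between 14 and 16 members were called when any 1 library was left out, and 17 without the 8 libraries with distant numbers (20.1% of all genes). The share of all genes was 6.43% without SIR male 14 and 8.34% without control female 20, with 14 members called in each. Without control female 20 the median slope was 0.019, with 24 of 31 slopes above 0.

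Ndn and Magel2 lie side by side in the Prader-Willi region. Ndn ran from 189 through a median of 293 to 489 CPM over the 31 libraries and rose by 0.127 ± 0.020 on the log2 scale per doubling of Hcrt (adjusted p 0.000197). Magel2, which encodes a regulator of endosomal protein recycling that is deleted in Prader-Willi syndrome, ran from 2.77 through 8.54 to 27.6 CPM, with a slope of 0.276 ± 0.044 (adjusted p 0.000244), the steepest of the members. Ndn was lowest in SIR male 14 and Magel2 in SIR female 11 (Hcrt 0.415 and 7.71 CPM), and both were highest in SIR male 4 (Hcrt 55.0 CPM). The library with the least Hcrt, SIR female 12, was the lowest for neither gene. Of the other genes of that region, the slope of Snrpn was -0.014 ± 0.006 (adjusted p 0.121), that of Ube3a -0.006 ± 0.018 (0.867) and that of Mkrn3 -0.014 ± 0.049 (0.886), none of which passed the threshold.

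The Peg3 domain holds Peg3 and Usp29, which are paternally expressed from a shared bidirectional promoter, and Zim1, a zinc finger gene known as maternally expressed. Peg3 rose by 0.066 ± 0.014 (adjusted p 0.00143), Usp29 by 0.075 ± 0.017 (0.00334) and Zim1 by 0.211 ± 0.039 (0.000684) per doubling of Hcrt. In the Peg10-Sgce domain, the retrotransposon-derived gene Peg10 rose by 0.197 ± 0.042 (0.00213) and Asb4, a maternally expressed gene of the ankyrin repeat and SOCS box family, by 0.248 ± 0.040 (0.000224). The slope of Sgce, of the same domain, was 0.011 ± 0.012 (adjusted p 0.573). Genes of both parental classes thus rose together within a domain, and a neighbour in the Peg10-Sgce domain did not pass the test.

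Nnat rose by 0.174 ± 0.034 (adjusted p 0.000994) and its host gene Blcap by 0.038 ± 0.008 (0.0016). The growth regulators were divided. Grb10, an adaptor that inhibits insulin and IGF receptors, rose by 0.091 ± 0.015 (0.000249), Dlk1 by 0.253 ± 0.051 (0.00148) and Plagl1 by 0.108 ± 0.025 (0.0035). The slope of Igf2 was 0.075 ± 0.037 (0.168), that of Igf2r 0.010 ± 0.008 (0.421) and that of Cdkn1c 0.020 ± 0.031 (0.724), and none of these passed. Of the remaining members, Impact rose by 0.075 ± 0.015 (0.00133), Nap1l5 by 0.060 ± 0.013 (0.00202) and H13, the signal peptide peptidase gene, by 0.030 ± 0.009 (0.0189). The call of H13 was lost without SIR male 14 (0.0891) and without control female 20 (0.151), and no other of the 15 calls was lost in any setting tried. The slopes of Rasgrf1, Gnas, Zrsr1, Commd1, Slc22a18, Copg2, Trappc9, Inpp5f and Mest lay between 0.003 and 0.066, and none passed the threshold (adjusted p of 0.128 and above).

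**Figure D4:**
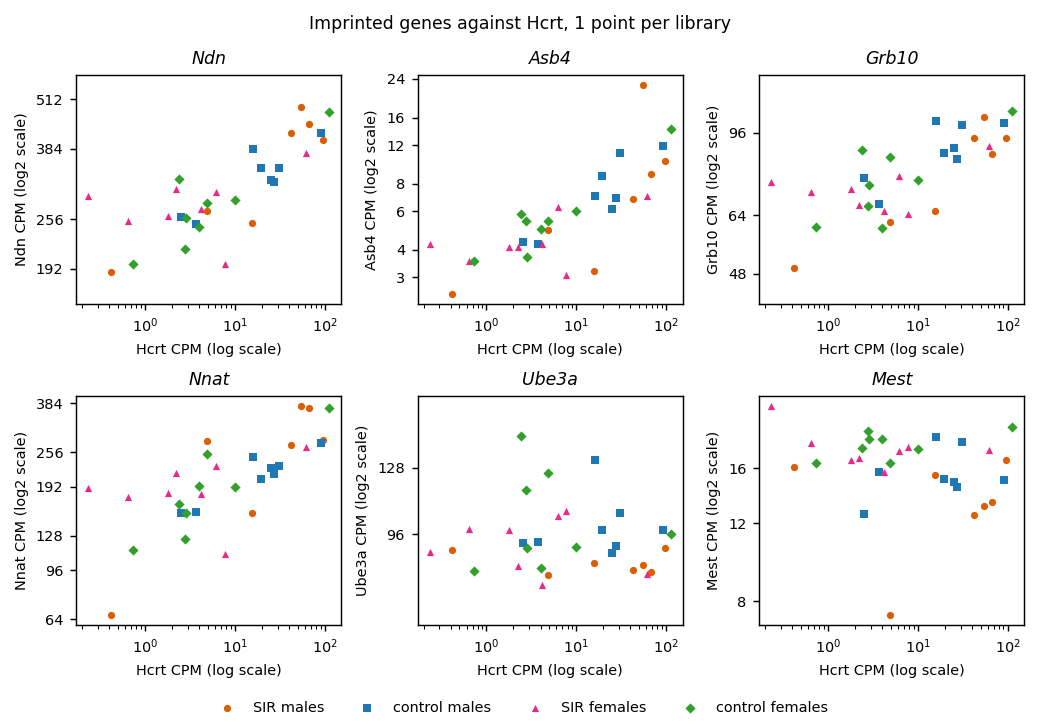
CPM of 6 members against CPM of Hcrt, both on log scales, with 1 point per library in the 4 groups. Ndn, Asb4, Grb10 and Nnat climb with Hcrt (Pearson r of 0.792, 0.790, 0.745 and 0.721 over 31 libraries), and Ube3a and Mest do not (r of -0.0922 and -0.201).

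The pattern had its extremes in single libraries. SIR male 14, with 0.415 CPM of Hcrt and 1.37 CPM of Pmch, held the lowest value of the 31 libraries in 11 of the 15 called members. SIR male 4, with 55.0 CPM of Hcrt and 111 CPM of Pmch, held the highest value in 7, and control female 20, with 113 CPM of Hcrt and 124 CPM of Pmch, in 3. Other libraries did not follow the markers. SIR female 12, with the least of both, was lowest in 0 of the 15. SIR male 13 (Hcrt 96.3 CPM) and control male 21 (92.2 CPM) were highest in 0. Control female 31 (2.40 CPM) and control male 19 (16.1 CPM) were highest in 2 each, and SIR female 11 (7.71 CPM) lowest in 2. The 15 were picked by their slope on Hcrt, so these counts add no support to it. Nnat, for example, stood at 66.4 CPM in SIR male 14 and at 375 CPM in SIR male 4.

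With Pmch in place of Hcrt, 11 of 31 members were called, all of them higher with more Pmch, where 5.13% of all genes were called, 3.31% higher and 1.82% lower. These were Asb4, Nap1l5, Grb10, Nnat, Zim1, Impact, Peg3, Ndn, Dlk1, Magel2 and Blcap, and all 11 were also called with Hcrt. The steepest slopes were those of Dlk1, 0.309 ± 0.080 (adjusted p 0.0305), and Magel2, 0.305 ± 0.079 (0.0305). These calls rested on few libraries. Over all libraries, 15 members and 3425 of 14885 genes had an unadjusted p under 0.05 by edgeR. Without SIR male 14, edgeR called 0 members and 9 of all genes, and 12 members had an unadjusted p under 0.05. Without control female 20 it called 0 members and 34 genes, with 14 members at an unadjusted p under 0.05, and without the 8 libraries with distant numbers 0 members and 18 genes, with 15. Without SIR female 12, the library with the least Pmch, 15 members and 18.1% of all genes were called. Without the library labelled SIR female 5, 13 members and 6.41% of all genes were called. Without control male 16 there were 6 members (1.71% of genes), without SIR male 4 there were 7 (1.78%) and without control female 24 there were 7 (2.75%). The median slope without SIR male 14 was 0.041 and without control female 20 it was 0.033, against 0.042 over all libraries.

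**Figure D5:**
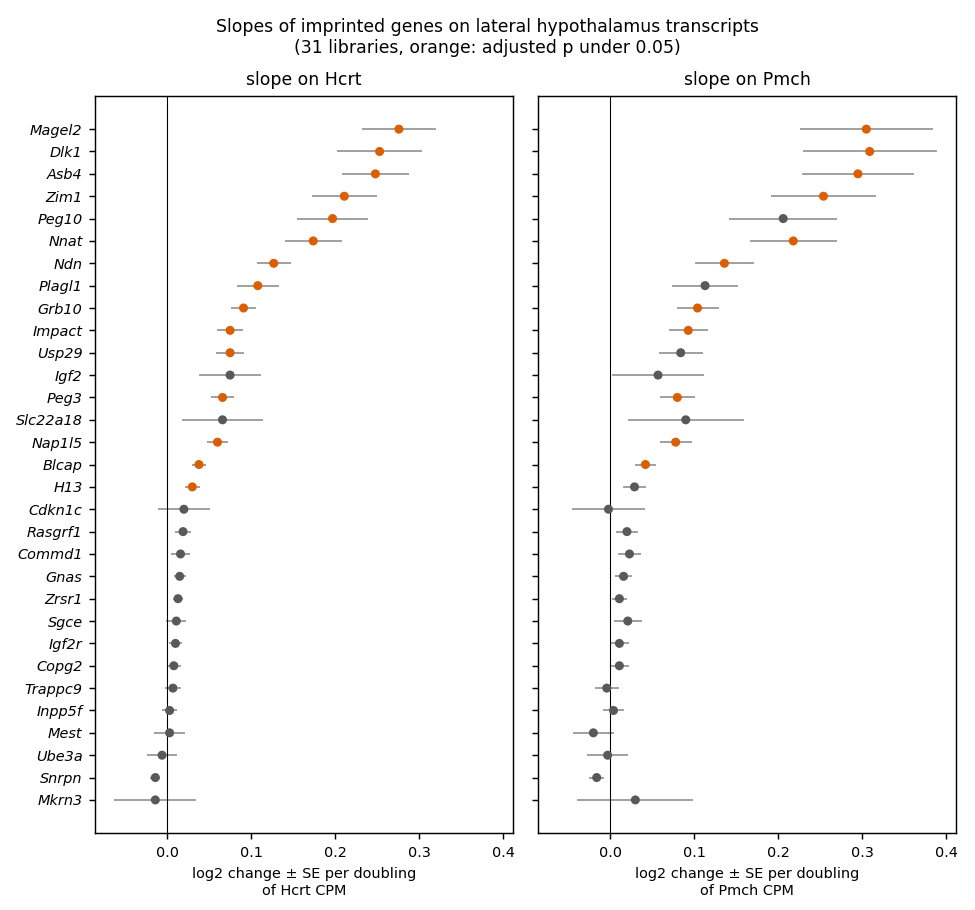
Slope of each member on Hcrt (left) and on Pmch (right), as log2 change per doubling of the marker with its standard error, from 31 libraries with the 4 group means in the fit. The 15 members called with Hcrt are led by Magel2 at 0.276, and the 11 called with Pmch by Dlk1 at 0.309; members near 0 include Ube3a, Mest and Inpp5f in both panels.

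Correlations were computed on log2 CPM over the 31 libraries. Of 62 relations of members with the markers, 14 with Pmch and 18 with Hcrt had an adjusted permutation p under 0.05, and all of these were positive. The permutation test was not run over all genes, so no share over all genes stands beside these counts. With Hcrt, Ndn had r = 0.792 and rho = 0.758 (permutation p 1e-05, the smallest that 100000 permutations can give, adjusted p 7.75e-05), and r = 0.827 without the 2 libraries farthest from the median of Hcrt. Asb4 had r = 0.790 and rho = 0.813 with Hcrt, and r = 0.786 without those libraries. Magel2 had r = 0.780 and rho = 0.768, Grb10 r = 0.745 and rho = 0.722, Blcap r = 0.745 and rho = 0.730, and Zim1 r = 0.722 and rho = 0.733. The p-values of these 5 were also the smallest possible, and each adjusted p was 7.75e-05. Without the farthest libraries r was 0.795 for Magel2, 0.766 for Grb10, 0.768 for Blcap and 0.742 for Zim1. At the other end stood Mest (r = -0.201, rho = -0.258), Snrpn (r = -0.102, rho = -0.102) and Ube3a (r = -0.0922, rho = -0.073), with adjusted permutation p-values of 0.366, 0.685 and 0.716.

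With Pmch, the closest members were Zim1 (r = 0.690, rho = 0.733), Nnat (r = 0.679, rho = 0.714) and Asb4 (r = 0.665, rho = 0.777), then Dlk1 (r = 0.660, rho = 0.713), Impact (r = 0.641, rho = 0.619) and Grb10 (r = 0.640, rho = 0.698). Their adjusted permutation p-values lay between 0.000169 (Zim1) and 0.00108 (Dlk1). Without the 2 libraries farthest from the median of Pmch, r was 0.679 for Zim1, 0.701 for Nnat, 0.739 for Asb4, 0.559 for Dlk1, 0.583 for Impact and 0.684 for Grb10. The lowest were Snrpn (r = -0.230, rho = -0.196), Mest (r = -0.192, rho = -0.186) and Cdkn1c (r = -0.0494, rho = -0.205), with adjusted permutation p-values of 0.305, 0.357 and 0.822. Pmch and Hcrt varied together (r = 0.862, rho = 0.953, permutation p 1e-05, r = 0.896 without the 2 farthest libraries), so the relations with both markers are not independent.

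With the group means removed, r with Hcrt was 0.765 for Ndn, 0.759 for Asb4, 0.736 for Magel2 and 0.750 for Grb10. Within the groups, Ndn had r = 0.914 with Hcrt in SIR males (n = 7), 0.314 in SIR females (n = 8), 0.881 in control males (n = 8) and 0.882 in control females (n = 8). Grb10 had 0.935 in SIR males, 0.405 in SIR females, 0.800 in control males and 0.753 in control females. With Pmch, Ndn had 0.846 in SIR males, -0.0179 in SIR females, 0.880 in control males and 0.768 in control females, and Grb10 0.870, 0.0843, 0.876 and 0.640 in the same groups. Both genes had their lowest r in SIR females with both markers, and whether r differs between the groups was not tested. SIR females held from 0.234 through a median of 3.19 to 61.4 CPM of Hcrt.

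Other markers moved with Hcrt as well. Of 8 tested markers of other hypothalamic neurons, 7 were called higher with more Hcrt and none lower, of 7 choroid plexus markers 5 were higher, and of 7 thalamic relay neuron markers 5 were lower and none higher. Summed over the list, the other hypothalamic markers ran from 7.83 to 366 CPM over the libraries. The choroid plexus markers summed to 10.6 to 262 CPM in SIR and 13.3 to 1789 CPM in control libraries. The part of neighbouring tissue in the members' relation to Hcrt was not tested.

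Among members of one imprinted domain, 20 pairs were compared as deviations from the group means, and 8 had an adjusted permutation p under 0.05, of which 6 were positive. Pairs of other genes were not compared, so no share over other pairs stands beside this count. Peg3 and Usp29 had r = 0.967 (rho = 0.968), Ndn and Magel2 r = 0.956 (rho = 0.941) and Usp29 and Zim1 r = 0.896 (rho = 0.885). Peg10 and Asb4 had r = 0.886 (rho = 0.896), Peg3 and Zim1 r = 0.873 (rho = 0.890), and Nnat and Blcap r = 0.812 (rho = 0.774). The permutation p of each of these 6 pairs was 1e-05, the smallest possible, and the adjusted p 3.33e-05. Without the 2 farthest libraries r lay between 0.798 (Nnat and Blcap) and 0.958 (Peg3 and Usp29). With Pmch removed by regression r was 0.954 for Peg3 and Usp29, 0.933 for Ndn and Magel2 and 0.812 for Peg10 and Asb4. Hcrt was not removed in this way, and the part of neighbouring tissue in these pairs was not tested. Pairs such as Peg3 and Zim1, Peg10 and Asb4 or Nnat and Blcap thus joined a gene classed as paternally expressed and a gene classed as maternally expressed.

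Ndn and Snrpn had r = -0.498 (rho = -0.488, adjusted permutation p 0.0115), and Magel2 and Snrpn r = -0.439 (rho = -0.431, adjusted permutation p 0.0343). Without the 2 farthest libraries these were -0.415 and -0.343, and without removal of the group means -0.178 and -0.148. Ube3a had r of 0.0623 with Ndn and -0.063 with Snrpn (adjusted permutation p 0.85 each), Sgce 0.341 with Peg10 (0.135) and Mest -0.205 with Copg2 (0.492). Not every pair of a domain passed the threshold, and a p that misses the threshold does not show independence.

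Gnas has several starts whose transcripts differ in the expressed copy. The exon 1 start, which gives the G protein alpha subunit, held 93.7% of the gene's TPM, the exon 1A start 5.01%, the Nesp start (maternally expressed) 1.25% and the Gnasxl start (paternally expressed) 0.0359%. In relations added after the transcripts were seen, the summed TPM of the Nesp start had r = 0.793 and rho = 0.801 with Hcrt, and that of the Gnasxl start r = 0.857 and rho = 0.844 (adjusted permutation p 8e-05 each). Without the 2 farthest libraries r was 0.861 and 0.878. The exon 1 start had r = 0.376 and rho = 0.398 (adjusted permutation p 0.0409). Transcripts from the Nesp start ran from 5.17 to 83.4 TPM over the libraries, those from the Gnasxl start from 0.0948 to 2.86 TPM and those from exon 1 from 1813 to 2920 TPM.

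For Grb10, the downstream start, which is used from the paternal copy in neurons, held 49.0% of the TPM and the upstream start 39.3%. With Hcrt the downstream class had r = 0.613 and rho = 0.642 (adjusted permutation p 0.000613) and the upstream class r = 0.561 and rho = 0.573 (adjusted permutation p 0.0019). Without the 2 farthest libraries r was 0.648 and 0.576. The internally starting transcripts of Inpp5f had r = 0.513 and rho = 0.594 with Hcrt (adjusted permutation p 0.00485) and its full-length transcripts r = -0.361 and rho = -0.329 (adjusted permutation p 0.053). Without the farthest libraries these were 0.559 and -0.349. For Nnat, the transcript Nnat-202 held 70.6% of the TPM and Nnat-205 22.5%, and both were lowest in SIR male 14, at 73.5 and 20.8 TPM.

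A pair of other lists, chosen with earlier results of these data known, give the setting. Of 18 regulators of imprinting, all of which passed the filter, 1 was called between SIR and control offspring, where 4.55% of all genes were. A share of 1 in 18 is near that of all genes. The called gene was Arid4b, which encodes a chromatin protein that acts at the Prader-Willi imprint. It ran from 30.6 through 34.8 to 40.0 CPM in SIR offspring, against 34.9 through 38.7 to 42.9 CPM in controls, a log2 fold change of -0.15 ± 0.04 (edgeR, adjusted p 0.0232), and in males of -0.24 ± 0.05 (0.0219). The groups overlapped. No regulator was called in females, for the interaction or with either marker by edgeR. Between males and females 1 was called, where 10.1% of all genes were. This was Zfp445, which encodes a zinc finger protein that shares the role of ZFP57. It was lower in males than in females with a log2 fold change of -0.19 ± 0.05 (edgeR, adjusted p 0.0246). The median slope of the regulators on Hcrt was 0.007, against 0.038 in the members.

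Of 23 other coding genes reported as imprinted in mouse, 22 were in the files and 18 passed the filter. Between SIR and control females 1 was called higher and 1 lower, where 2.38% and 2.24% of all genes were. Slc22a3, an organic cation transporter gene, ran from 3.74 through 4.79 to 5.61 CPM in SIR females, against 1.39 through 2.89 to 4.19 CPM in control females, with a log2 fold change of 0.74 ± 0.17 (edgeR, adjusted p 0.0127). Its effect differed between the sexes by -1.03 ± 0.25, males minus females (0.0185). Gatm, which encodes the enzyme of creatine synthesis, was lower in SIR females with a log2 fold change of -0.25 ± 0.08 (0.0476), with an interaction of 0.39 ± 0.11 (0.0434), and lower in males than in females with -0.25 ± 0.05 (0.00467). Of 5 oligodendrocyte markers, 2 were called lower in SIR females and 1 lower in males than in females (2.24% and 5.65% of all genes). All 5 were called with a positive interaction (1.08% of all genes). The part of oligodendrocytes in the Gatm differences was not tested. With Hcrt, 6 of the 18 were called higher and 3 lower, where 9.55% of all genes were called higher and 8.49% lower. Rtl1, a retrotransposon-derived gene of the Dlk1-Dio3 domain, rose by 0.25 ± 0.04 per doubling of Hcrt (0.000331) and Ddc, which encodes aromatic amino acid decarboxylase, by 0.14 ± 0.03 (0.00202). Adam23, a membrane protein gene, fell by 0.04 ± 0.01 (0.00264). With Pmch, 3 were called higher (Rtl1, Ddc and Zdbf2) and 2 lower (Adam23 and Osbpl5), where 3.31% and 1.82% of all genes were. Zfp445, Zdbf2 and Osbpl5 were named after their values were seen.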

How the data were processed

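FastQC, kallisto and build GRCm39 are named in the submitters' processing notes, with no version, annotation or strand setting. Per the labels' protocols, polyadenylated RNA was made into stranded libraries. For each transcript the authors deposited an estimated count (not normalized, as far as the values show), a TPM value on the same total in each library, and an effective length. Of 105878 transcripts, 104949 (99.12%) matched a gene by identifier in GENCODE M21. The rest, 0.689% to 0.755% of a library's counts, were left out. Gene values are sums of estimated counts over transcripts, rounded.

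Genes kept by filterByExpr (14886) were scaled by TMM and fitted with edgeR 4.0.16 (robust quasi-likelihood; R 4.3.3) with 4 group means over all 31 libraries (27 residual degrees of freedom). P-values were adjusted by Benjamini-Hochberg over all genes, with a threshold of 0.05. Slopes used log2 CPM of the marker (prior count 2) as a covariate. CPM are on TMM-scaled totals. Correlations used 2-sided permutation tests, adjusted over 62 member relations, 20 pairs or 16 transcript classes by marker. Alternatives were other scalings and filters, DESeq2 1.42.0, limma 3.58.1 (voom with sample weights, and trend on log2(TPM + 1)), length offsets, 2 surrogate variables (sva 3.50.0), covariates, and libraries left out. The edgeR fits and the permutation tests were tested on simulated data. The 105 pairs of libraries within a group differed by more than sampling noise (chi-square per degree of freedom of 5.36 or more). The labels do not say whether animals share a litter, so p-values cover only the spread among the animals sampled.

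The members, lists and tests were chosen with earlier results of these data known. Named in full were members called in a comparison (or the 3 of smallest p), the 8 of highest TPM, the 6 highest and 3 lowest in r for each marker, the leading pairs, and up to 6 called genes of the other lists. Imprinted noncoding RNAs and Zfp264 were not analysed here. No coordinates of the authors' build are given.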

Additional observations from a re-analysis of the deposited data

Results flagged for a closer look

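Among 124 sets of a member in a group of libraries, 15 held a library that stood apart in CPM from the rest of its group. For normally distributed values chance gives about 1 in 20 groups. The members vary together and the CPM were not put on a log scale, so that rate is only a rough guide. Of these, 6 lay in control female 20, the library with the highest Hcrt (113 CPM) and Ttr (1564 CPM). Ndn stood there at 476 CPM (198 to 322 in the other control females), Magel2 at 23.5 CPM (4.34 to 13.2), Asb4 at 14.2 CPM (3.56 to 6.0) and Igf2 at 152 CPM (26.9 to 59.9). Igf2r stood there at 52.1 CPM (41.4 to 45.3) and Cdkn1c at 8.44 CPM (2.64 to 4.76).

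In the shallowest library, control female 31, Gnas stood at 1449 CPM (1669 to 1854 in the others) and Rasgrf1 at 647 CPM (483 to 554). Among control males, Ube3a stood at 132 CPM in number 19 (88.4 to 105 in the others), Igf2 at 44.0 CPM in number 28 (32.6 to 36.4) and Slc22a18 at 0.908 CPM in number 16 (0.583 to 0.716). Among SIR males, Asb4 stood at 22.5 CPM in number 4 (2.53 to 10.1) and Copg2 at 101 CPM in number 15 (86.2 to 92.4). Among SIR females, Mest stood at 22.1 CPM in number 12 (15.7 to 18.2) and Zrsr1 at 117 CPM in number 2 (98.1 to 103). Not all of these stood apart in TPM. Ube3a had 50.9 TPM in control male 19, below the 62.5 TPM of control male 21. Slc22a18 had 0.991 TPM in control male 16, below 1.19 TPM in control male 21. Copg2 had 65.7 TPM in SIR male 15, below 72.5 TPM in SIR male 13. Rasgrf1 had 302 TPM in control female 31, beside 293 TPM in control female 20.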

How the results depend on the processing

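No member called in a comparison changed the direction of its value in any setting tried. Medians over the members did: that for sex was -0.034 with Hcrt as a covariate, against 0.102, and that for the interaction -0.02 with Pmch and -0.019 with Hcrt, against 0.055. The median in males, 0.004, was below 0 in several settings, the lowest -0.101 with limma-trend. The share of all genes called in the same fit is given in brackets. The number of members called between SIR and control offspring over both sexes was 0 (4.55%). It was 2 by DESeq2 (7.77%) and 1 by limma-voom (8.40%). In females it was 1 (4.62%). It became 2 by DESeq2 (6.57%), by limma-voom (8.18%) and with Pmch (5.75%) or Hcrt (6.76%) as a covariate. It became 0 without a filter (2.30%), with limma-trend (1.80%) and with 2 surrogate variables (5.84%). It was also 0 without the library labelled SIR female 5 (3.65%), without the 8 libraries with distant numbers (0.302%) and without the 2 shallowest (3.08%). For the interaction it was 0 (2.83%) and became 1 by limma-voom (4.97%) and with 2 surrogate variables (9.37%). For sex it was 4 (10.1%) and became 2 without a filter (5.43%), 15 by limma-voom (20.3%) and 1 with limma-trend (4.55%). It became 11 with 2 surrogate variables (7.16%), 2 with Hcrt (5.15%) and 0 with Ttr (3.33%) as a covariate. It was 1 without the 8 libraries apart (3.46%). With Pmch it was 11 (5.13%) and became 0 without those 8 libraries (0.121%). With 1 library left out in turn, the count stayed at 0 over both sexes, in males and for the interaction, and ran from 0 to 2 in females, from 2 to 9 for sex, from 0 to 15 with Pmch and from 14 to 16 with Hcrt. For sex it was 9 without control female 20 and 8 without SIR male 14. The cause was not tested. The counts of correlated members (14 and 18) and of domain pairs (8) stayed within 1.5 times under every setting tried, with 14 to 18, 18 to 20 and 6 to 8. In females, 18 of 31 members lay below 0 by limma-voom, against 26 by edgeR. No paired analysis was possible because the replicate numbers of the labels run on through all groups and none is shared. The smallest members, with under 1 CPM, rest on few counts.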
